A study of Mus musculus with 41 samples.

Results

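The axon guidance genes are described here in a mouse endocardial cell line whose Notch pathway had been stimulated or blocked: the semaphorins and their plexin and neuropilin receptors, the netrins and Unc5 receptors, Slit and Robo, and the ephrins and Eph receptors. Members were all genes whose symbol in the first deposited table begins with Sema, Plxn, Ntn, Unc5, Slit, Robo or Efn, or is an Epha or Ephb gene, Nrp1 or Nrp2, so that membership rests on names. These families were picked with earlier results of these data known, which limits what the shares of members called can show. The rule found 51 of the 13886 genes of that table: 15 semaphorins, 8 plexins, 2 neuropilins, 2 netrins, 3 Unc5 symbols, 2 Slits, 2 Robos, 5 ephrin-As, 3 ephrin-Bs, 5 EphA and 4 EphB receptors. Unc50 matches the rule by its letters but is not a netrin receptor, which leaves 50 guidance genes. The second table listed 48 of the 51 (without Ntn1, Robo3 and Sema4f) and the third 49 (without Ntn1 and Robo3).

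RNA-seq was done on MEEC, an established wild-type line of mouse embryonic endocardial cells, in 41 libraries, 13 groups and 3 experiments, each with its own table. In the co-culture experiment MEEC were laid over OP9 stromal cells that expressed Dll4 (OP9-Dll4), Jag1 (OP9-Jag1) or GFP (OP9-GFP), for 24 h or 6 h (3 libraries in each group), with MEEC at 25% confluency for 24 h and 50% for 6 h. In the second, MEEC were kept for 24 h in 20 µM RO4929097 (RO), a blocker of gamma-secretase, the enzyme that frees the Notch intracellular part, or in its vehicle DMSO, and then for 6 h over OP9-GFP (n = 4). In the third, MEEC without OP9 cells grew on wells coated with recombinant DLL4-His (rDLL4) or JAG1-Fc (rJAG1), with 20 µM RO or with DMSO, or with DMSO and no ligand (DMSO), for 24 h and then 14 h without serum (n = 3). The labels do not state whether the libraries within a group stem from separate cultures, and each p-value covers only their spread, which may be technical. Depth per library was 14.1 to 16.8 M reads (M, mega) in co-culture, 19.4 to 25.2 M in the inhibitor experiment over OP9-GFP, and 11.2 to 34.2 M with recombinant ligand.

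Semaphorins, netrins, Slits and ephrins are cues that steer growing axons and vessels, and the same families take part in the forming heart and its vessels. Secreted class 3 semaphorins act through plexins, most of them with a neuropilin as co-receptor, while Sema3e can bind Plxnd1 directly. Netrins act on Dcc, neogenin and Unc5 receptors, Slits on Robo receptors, and ephrins on Eph receptors of touching cells, where the bound pair signals into both cells. Notch ligands of the Delta and Jagged kinds release an intracellular Notch fragment that joins RBPJ at target genes. Efnb2 is known as a Notch target in arterial endothelium.

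Of 26 endothelial and endocardial markers, 14, 13 and 13 were listed in the 3 tables, with summed signals of 340 to 495, 425 to 489 and 373 to 469. Pecam1, Cdh5, Tie1, Emcn and Erg, which define endothelial cells, were not among the genes of any table used here. Genes of a stromal list meant for OP9 (Col1a1, Col3a1 and others) summed to 5725 to 10366 with OP9 present and to 5914 to 9419 in the third experiment, where no OP9 cells were used, so this list does not separate OP9 from MEEC RNA. In co-cultures the RNA may hold both cells' transcripts, and the part of OP9 in those results was not tested. In bulk RNA, fewer cells of a type and less RNA per cell cannot be told apart. The DMSO library 3 of the third experiment and the replicate 2 libraries at 6 h in the co-culture experiment stood apart from the others of their groups: chi-square per gene was 52.5 between DMSO libraries 2 and 3 and 32.3 between OP9-GFP libraries 1 and 2 at 6 h, against a lowest value of 5.42 between libraries of one group. So did rJAG1 library 2, at 17.9 and 22.1 from libraries 1 and 3, against 6.90 between those. In the second experiment the highest values, 26.6 (DMSO) and 26.9 (RO), were between libraries 1 and 4.

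Values are the authors' normalized signal, reads scaled to a common library size. Across genes, levels are compared as signal per kb of exon. Epha2, an ephrin-A receptor of epithelia and vessels, had the highest level per kb of all members in the first experiment (105, range over libraries 92.9 to 125) and in the second (113, 85.2 to 141), and the fifth highest in the third (53.1, 37.5 to 81.2). Plxnb2, a receptor for class 4 semaphorins, led the plexins at 84.8, 64.1 and 59.3 per kb, and Unc5b, the netrin receptor of endothelium, stood at 58.6, 46.4 and 57.8. Efnb2 led the ephrin-Bs at 57.1, 66.3 and 31.8, Efna5 the ephrin-As at 24.1, 28.6 and 27.1, Ephb4, the receptor of Efnb2 in veins, the EphB genes at 11.2, 11.0 and 10.2, and Nrp2 the neuropilins at 12.1, 14.1 and 6.37. Among semaphorins Sema3e was highest in the first 2 experiments (36.1 and 47.3 per kb) and Sema3c in the third (59.6), where it ranked first of all members. Slit3 stood above Slit2 in the first 2 experiments (43.8 and 34.1) and Slit2 led in the third (55.6). Ntn4 and Robo1 led their families at only 0.62 to 2.69 and 0.39 to 0.48 per kb. The ranges of most of these neighbours overlap, so their order is a description. By signal per gene, 13 members stood at 100 or more in each experiment, and 17, 15 and 18 stood under 10.

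Promoters are shown for 4 genes, chosen with their values known, whose signal moved with ligand and whose RefSeq promoter window holds a motif of the Notch pathway. The window runs from 250 bases before to 50 bases after a RefSeq start, which can differ from the gene start in GENCODE, the annotation used for exon lengths. The GENCODE start is 93640681 for Ntn4 and 17574281 for Sema3c, so both of these windows lie inside the GENCODE gene. Ntn4 and Efnb1 were higher with recombinant ligand, and Sema3c and Sema3e lower. The letters searched on both strands were TGGGAA, which RBPJ is known to bind, CACGTG and CACGCG, which Hes and Hey repressors are known to bind. Capitals mark the match, and sequences are from RefSeq, build GRCm38.p6, plus strand.
Ntn4, chr10:93640799-93641098: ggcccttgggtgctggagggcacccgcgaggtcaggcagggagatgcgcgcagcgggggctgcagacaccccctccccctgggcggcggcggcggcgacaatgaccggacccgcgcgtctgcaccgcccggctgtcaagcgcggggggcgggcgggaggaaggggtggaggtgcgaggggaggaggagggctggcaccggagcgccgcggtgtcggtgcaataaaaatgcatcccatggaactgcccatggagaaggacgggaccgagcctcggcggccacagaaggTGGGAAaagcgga
Efnb1, chrX:99135811-99136110: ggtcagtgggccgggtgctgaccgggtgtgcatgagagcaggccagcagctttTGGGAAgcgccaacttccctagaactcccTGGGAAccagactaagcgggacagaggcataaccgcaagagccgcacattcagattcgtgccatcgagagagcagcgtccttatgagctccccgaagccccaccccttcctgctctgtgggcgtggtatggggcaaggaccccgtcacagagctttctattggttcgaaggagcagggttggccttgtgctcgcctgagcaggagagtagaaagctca
Sema3c, chr5:17574566-17574865: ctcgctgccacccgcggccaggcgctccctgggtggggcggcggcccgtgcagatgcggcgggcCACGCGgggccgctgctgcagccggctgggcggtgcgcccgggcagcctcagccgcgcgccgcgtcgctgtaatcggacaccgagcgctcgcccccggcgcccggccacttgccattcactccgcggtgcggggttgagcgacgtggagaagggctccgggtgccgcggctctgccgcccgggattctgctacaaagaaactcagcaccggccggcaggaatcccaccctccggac
Sema3e, chr5:14025026-14025325: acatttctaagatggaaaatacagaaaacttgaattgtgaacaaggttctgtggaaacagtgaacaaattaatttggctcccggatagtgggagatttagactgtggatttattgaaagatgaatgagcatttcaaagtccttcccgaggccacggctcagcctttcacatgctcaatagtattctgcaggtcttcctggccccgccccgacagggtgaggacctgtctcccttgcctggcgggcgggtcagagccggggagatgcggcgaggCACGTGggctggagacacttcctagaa
The match in Ntn4 starts 38 bases after the RefSeq start, those in Efnb1 at -197 and -168, that in Sema3c at -186 and that in Sema3e at 24. Of 58 promoters of the 45 members matched in the RefSeq table, 12 (20.7%) held TGGGAA, 3 (5.17%) CACGTG and 9 (15.5%) CACGCG, against 25.6%, 7.15% and 9.27% of all 32851 promoters. Matches stood beside changes of either direction: TGGGAA also stood before Plxnb2 and Sema5a, both lower with rJAG1, and CACGCG before Sema5a and before Nrp1 and Plxna2, both higher with rJAG1. A match is a description of letters and shows no binding.

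The third experiment set immobilised ligand against DMSO, and each ligand with the inhibitor against that ligand without it. No group of this experiment had RO without ligand, so loss of the ligand's effect and other effects of RO cannot be told apart. The labels name no control coating, so ligand and coated protein as such cannot be told apart either. Over rJAG1, class 3 semaphorin ligands fell while Ntn4, Plxnd1, Plxna2, Nrp1, both Slits, Efnb1, Ephb2 and Epha3 rose, and over rDLL4 Sema3a, Sema3c and Sema3e fell and 8 members led by Ntn4 rose. With RO added to either ligand, Sema3a, Sema3c, Sema3d and Sema3e rose and Ntn4, Plxnd1, Plxna2, Efnb1 and Ephb2 fell. A member was called at an adjusted p under 0.05 in limma on log2(signal + 1), with Benjamini-Hochberg adjustment over all genes of the table, and log2 fold changes (± SE) on that scale understate the change of genes with low signal. With rDLL4, 8 members rose and 3 fell of 49, 22.4% of members against 3.5% of all genes (2.45% higher, 1.05% lower). With rJAG1, 9 rose and 7 fell, 32.7% of members against 9.58% of all genes (4.83% higher, 4.76% lower). RO on rDLL4 gave 5 higher and 11 lower members, 32.7% against 10.7% (4.91% higher, 5.76% lower). Without Sema4f, which reached a signal of 1 in too few libraries outside rDLL4 to be listed by them, that was 5 higher and 10 lower of 48, or 31.2%. RO on rJAG1 gave 12 higher and 11 lower, 46.9% against 18.4% (9.58% higher, 8.78% lower). The median log2 fold change of members was 0.03, -0.05, -0.11 and -0.04 in these 4 comparisons, against -5.1e-04, 0.0014, 0.0051 and 0.0051 for all genes. Both ligands are set against the same DMSO libraries and both inhibitor effects against the ligand libraries used before, so the 4 comparisons are not independent. Without rDLL4 library 1 or 2 the rDLL4 count of 11 was 6 or 7, while a fit of only the 2 groups gave 5 members for rDLL4 and 10 for rJAG1, and library weights gave 23 and 27. RO on rDLL4 gave 25 members in a fit of only the 2 groups and 27 with library weights. For library weights, fits of only the 2 groups and fits without 1 library, here and below, no share over all genes is given. Those counts are tallies only. Of 7 Notch targets tested, Hes1, Hey1, Hey2, Heyl and Nrarp rose with either ligand and fell with RO on either.

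**Figure D1:**
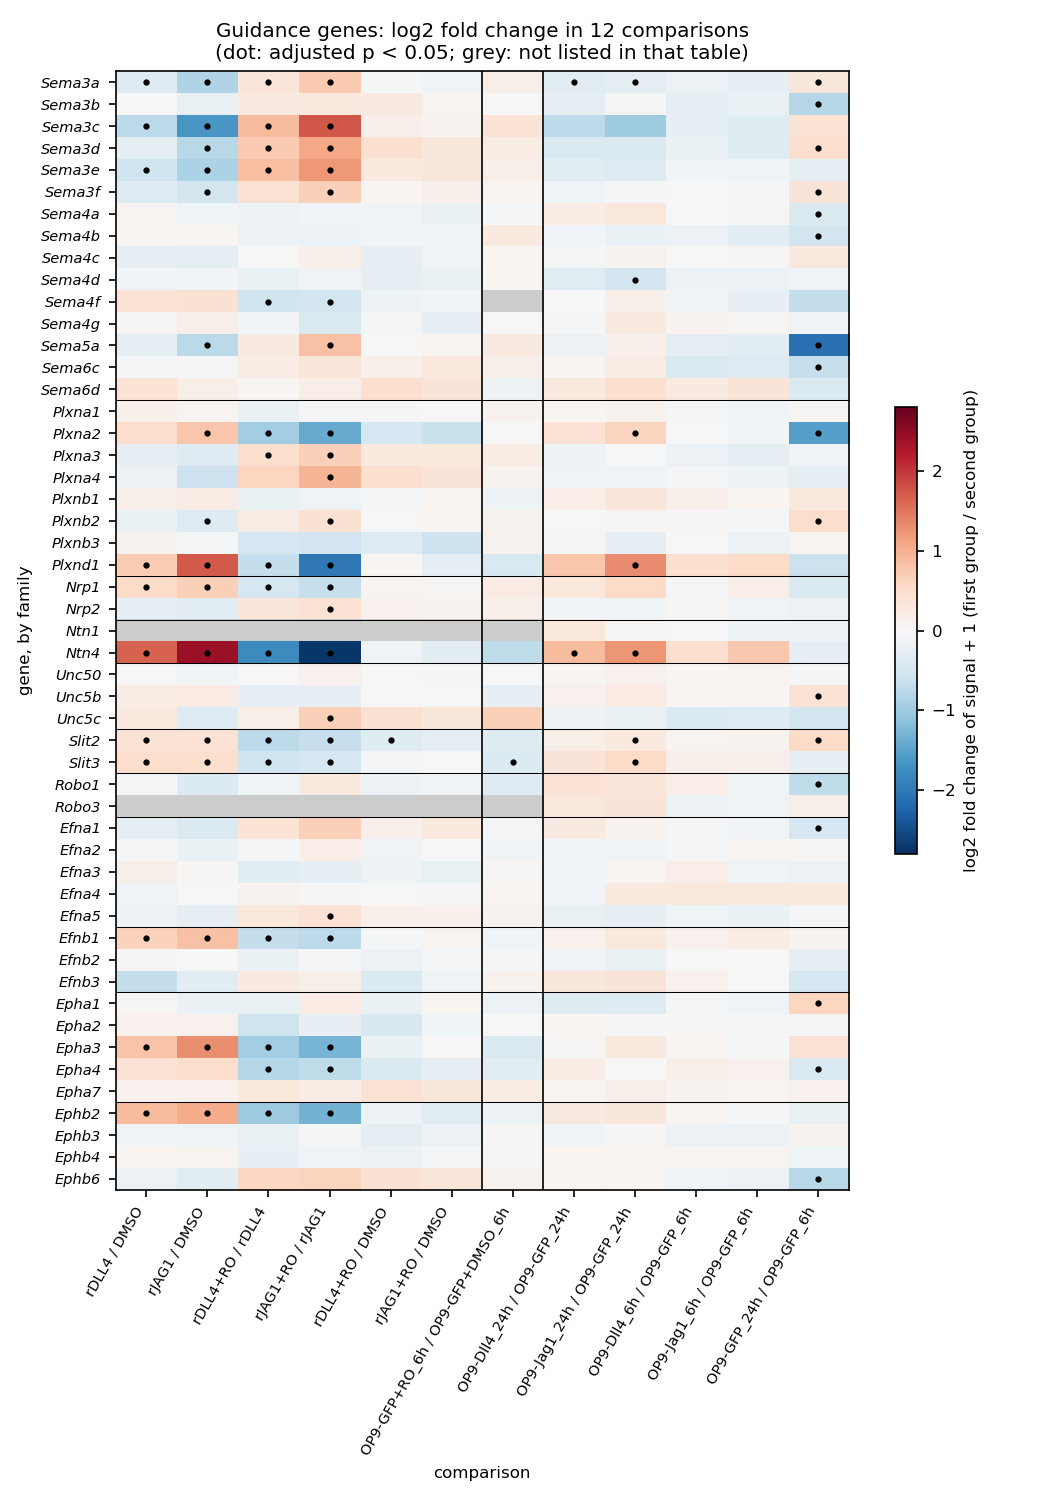
Log2 fold change of signal + 1 for the 51 members (rows, by family) in 12 comparisons (columns, first group over second), with dots where the adjusted p was under 0.05 and grey where a gene was not listed in that table. Sema3a, Sema3c, Sema3d, Sema3e and Sema3f are blue over rDLL4 and rJAG1 and red after RO, while Ntn4 runs from 2.42 over rJAG1 to -2.73 after RO on rJAG1.

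Among the 6 class 3 semaphorins, 3 fell with rDLL4 and 5 with rJAG1, and 4 and 5 rose when RO was added. The largest of these changes was in Sema3c, which guides cardiac neural crest cells and is needed to divide the outflow tract in mice. Sema3c stood at 459, 432 and 431 over rDLL4+RO and at 432, 444 and 401 over rJAG1+RO. Without the inhibitor, Sema3c stood at 238, 271 and 207 over rDLL4 and at 136, 125 and 122 over rJAG1, against 456, 464 and 295 in DMSO. DMSO library 3, at 295, was the lowest of the controls, and no rDLL4 or rJAG1 library reached any DMSO or RO library. The log2 fold change of Sema3c was -0.74 ± 0.14 (adjusted p = 0.0061) with rDLL4 and -1.63 ± 0.14 (adjusted p = 1.7e-06) with rJAG1, and adding RO moved it by 0.89 ± 0.14 (adjusted p = 4.9e-04) on rDLL4 and 1.73 ± 0.14 (adjusted p = 3.8e-07) on rJAG1. The rDLL4 call was lost in a fit of only those 2 groups (adjusted p = 0.13).

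Sema3e, which repels endothelial cells through Plxnd1, fell with both ligands too. Sema3e stood at 403, 397 and 417 over rDLL4+RO and at 409, 427 and 411 over rJAG1+RO. Without the inhibitor, Sema3e stood at 232, 227 and 220.4 over rDLL4 and at 201, 155 and 185 over rJAG1, against 334, 302 and 369 in DMSO. Each ligand group lay below DMSO, and each RO group above it, with no overlap. Its log2 fold change was -0.56 ± 0.09 (adjusted p = 0.0018) with rDLL4 and -0.89 ± 0.09 (adjusted p = 7.0e-06) with rJAG1, and 0.84 ± 0.09 (adjusted p = 1.5e-05) and 1.21 ± 0.09 (adjusted p = 1.6e-07) for RO on those ligands. The excess of the RO groups over DMSO itself was 0.28 ± 0.09 (adjusted p = 0.16) for rDLL4+RO and 0.32 ± 0.09 (adjusted p = 0.12) for rJAG1+RO, the second with an adjusted p of 0.046 with the replicate number as a block.

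Sema3a, the founding repellent of the class, which signals through Nrp1 and plexin-As, fell with both ligands. Sema3a stood at 131, 136 and 152 over rDLL4+RO and at 121, 145 and 134 over rJAG1+RO. Without the inhibitor, Sema3a stood at 105, 112 and 114 over rDLL4 and at 82.4, 69.5 and 88.2 over rJAG1, against 139, 134 and 156 in DMSO. The rJAG1 libraries lay below all rDLL4 libraries, and those below all DMSO libraries. The fold changes were -0.37 ± 0.09 (adjusted p = 0.042) with rDLL4 and -0.83 ± 0.09 (adjusted p = 2.7e-05) with rJAG1, with 0.34 ± 0.09 (adjusted p = 0.031) and 0.73 ± 0.09 (adjusted p = 4.8e-05) for RO. The call for rDLL4 was lost without rDLL4 library 1, 2 or 3 or DMSO library 1, 2 or 3 (adjusted p = 0.057 to 0.18), or in a fit of only those 2 groups (0.071), and that for RO on rDLL4 without rDLL4+RO library 2 or 3 or rDLL4 library 1, 2 or 3 (adjusted p = 0.062 to 0.15).

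Sema3d, which patterns veins and the pulmonary veins of mice, was called with rJAG1 and not with rDLL4. Sema3d stood at 472, 484 and 465 over rDLL4+RO and at 419, 458 and 432 over rJAG1+RO. Without the inhibitor, Sema3d stood at 307, 296 and 258 over rDLL4 and at 247, 174 and 197 over rJAG1, against 407, 364 and 284 in DMSO. The rDLL4 and DMSO libraries overlapped, while rJAG1 libraries lay below every DMSO library and both RO groups lay above. The fold changes were -0.28 ± 0.13 (adjusted p = 0.41) with rDLL4, -0.77 ± 0.13 (adjusted p = 9.0e-04) with rJAG1, 0.72 ± 0.13 (adjusted p = 0.0015) for RO on rDLL4 and 1.09 ± 0.13 (adjusted p = 1.9e-05) for RO on rJAG1. Over DMSO, rDLL4+RO differed by 0.44 ± 0.13 (adjusted p = 0.12), or adjusted p = 0.032 with the replicate block.

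Sema3f, a ligand of Nrp2, fell with rJAG1, with a log2 fold change of -0.52 ± 0.14 (adjusted p = 0.03), and rose with RO on rJAG1, by 0.66 ± 0.14 (adjusted p = 0.0041). Mean signals were 87.3 ± 6.5 in rDLL4+RO, 92.8 ± 7.76 in rJAG1+RO, 65.4 ± 4.85 in rDLL4 and 58.4 ± 4.98 in rJAG1, against 86.0 ± 21.4 in DMSO (SD, n = 3 each). The rJAG1 and DMSO libraries overlapped through DMSO library 3, at 61.6, and the rJAG1 call was lost without rJAG1 library 2 or 3 or DMSO library 1 or 2 (adjusted p = 0.082 to 0.14), or in a fit of only those 2 groups (0.18). With rDLL4 the change of Sema3f was -0.36 ± 0.14, adjusted p = 0.28, or 0.049 with the replicate block. Sema3b, the sixth member of the class, had mean signals of 5.29 to 7.64 over the 5 groups and was not called.

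**Figure D2:**
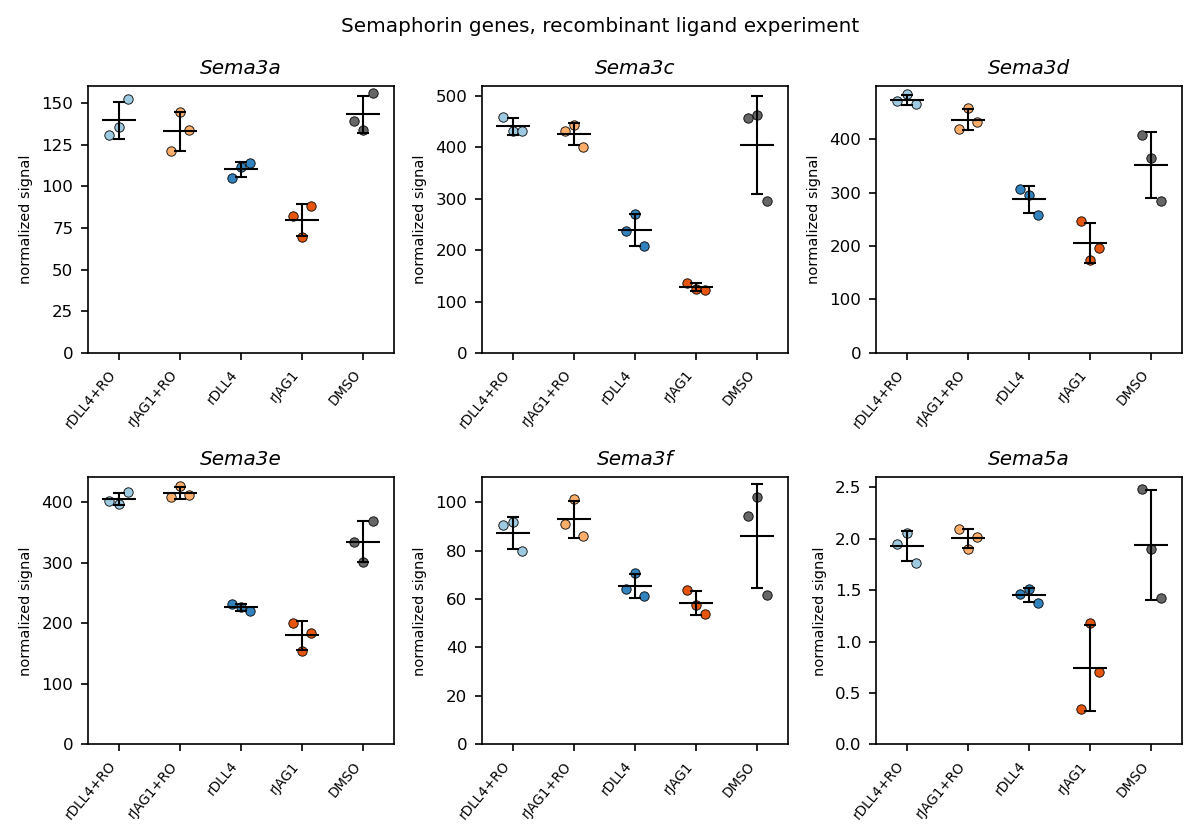
Normalized signal of 6 semaphorin genes in each library of the recombinant ligand experiment (points), with the mean and SD of each group (bars, n = 3). For Sema3c, Sema3d and Sema3e the rJAG1 libraries lie lowest and the RO groups at or above DMSO, with Sema3c at 122 to 136 over rJAG1 and 295 to 464 in DMSO.

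Of the 9 semaphorins of classes 4 to 6, which are membrane proteins in the main, Sema5a and Sema4f were called. Sema5a stood at 1.95, 2.06 and 1.77 over rDLL4+RO and at 2.09, 1.90 and 2.01 over rJAG1+RO. Without the inhibitor, Sema5a stood at 1.46, 1.51 and 1.38 over rDLL4 and at 0.347, 1.18 and 0.705 over rJAG1, against 2.49, 1.90 and 1.42 in DMSO. The rJAG1 libraries lay below all others, at 0.347 to 1.18, where a count of 3 reads corresponds to 0.215 to 0.270 in those libraries. Sema5a changed by -0.76 ± 0.17 (adjusted p = 0.0089) with rJAG1 and 0.81 ± 0.17 (adjusted p = 0.0037) for RO on rJAG1, the first lost without DMSO library 1 (adjusted p = 0.055), or in a fit of only those 2 groups (0.12). Sema4f stood near the limit of listing, and the files hold genes with a signal of 1 in at least 3 libraries. Sema4f stood at 0.471, 0.616 and 0.714 over rDLL4+RO and at 0.545, 0.716 and 0.770 over rJAG1+RO. Without the inhibitor, Sema4f stood at 1.2, 1.33 and 1.55 over rDLL4 and at 1.51, 1.89 and 0.889 over rJAG1, against 0.505, 0.930 and 0.921 in DMSO. Sema4f reached a signal of 1 in 5 libraries, of which 2 were outside rDLL4, so its listing rests on the group where it is high and its calls support nothing. They were -0.56 ± 0.17 (adjusted p = 0.047) for RO on rDLL4, lost without rDLL4+RO library 1, 2 or 3 or rDLL4 library 1, 2 or 3 (adjusted p = 0.077 to 0.15), or with a pseudocount of 4 (0.059), and -0.51 ± 0.17 (adjusted p = 0.048) for RO on rJAG1, lost without rJAG1+RO library 1, 2 or 3 or rJAG1 library 1 or 2 (adjusted p = 0.086 to 0.19), with library weights (0.054), in a fit of only those 2 groups (0.11), with a pseudocount of 0.5 (0.051), with a pseudocount of 4 (0.05), or after quantile normalization (0.057). The other 7 were not called in any comparison of this experiment, and Sema6d, the highest of them by signal, averaged 68.8 ± 8.46 in rDLL4+RO, 64.0 ± 7.23 in rJAG1+RO, 66.6 ± 7.83 in rDLL4 and 56.6 ± 10.9 in rJAG1, against 51.7 ± 17.1 in DMSO.

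Receptors moved both ways. Plxnd1, the endothelial plexin that binds Sema3e and is needed for outflow tract and vessel patterning in mice, rose with both ligands. Plxnd1 stood at 1.82, 2.44 and 2.52 over rDLL4+RO and at 2.04, 1.70 and 1.07 over rJAG1+RO. Without the inhibitor, Plxnd1 stood at 4.31, 4.88 and 3.33 over rDLL4 and at 9.61, 9.31 and 8.92 over rJAG1, against 2.53, 2.13 and 1.76 in DMSO. All rJAG1 libraries lay above all rDLL4 libraries, and those above all DMSO libraries, with no overlap with the RO groups. The fold changes were 0.72 ± 0.16 (adjusted p = 0.024) with rDLL4, 1.72 ± 0.16 (adjusted p = 5.6e-06) with rJAG1, -0.66 ± 0.16 (adjusted p = 0.016) for RO on rDLL4 and -2.0 ± 0.16 (adjusted p = 5.3e-07) for RO on rJAG1. The rDLL4 call was lost without rDLL4 library 1 or 2 or DMSO library 2 or 3 (adjusted p = 0.057 to 0.12), or in a fit of only those 2 groups (0.12), and that for RO on rDLL4 without rDLL4+RO library 1 or rDLL4 library 1 or 2 (adjusted p = 0.061 to 0.077).

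Plxna2, a receptor of class 3 and class 6 semaphorins found in cardiac neural crest, rose with rJAG1. Plxna2 stood at 4.15, 6.30 and 6.13 over rDLL4+RO and at 3.93, 5.85 and 5.04 over rJAG1+RO. Without the inhibitor, Plxna2 stood at 12.7, 13.1 and 9.63 over rDLL4 and at 14.5, 14.2 and 15 over rJAG1, against 8.18, 8.97 and 7.12 in DMSO. Groups did not overlap in any of these comparisons, and both RO groups lay below DMSO. Plxna2 changed by 0.49 ± 0.16 (adjusted p = 0.14) with rDLL4, 0.78 ± 0.16 (adjusted p = 0.0045) with rJAG1, -0.98 ± 0.16 (adjusted p = 7.4e-04) for RO on rDLL4 and -1.40 ± 0.16 (adjusted p = 1.4e-05) for RO on rJAG1. Against DMSO, the RO groups stood at -0.49 ± 0.16, adjusted p = 0.18 for rDLL4 and -0.62 ± 0.16, adjusted p = 0.093 for rJAG1, the second 0.03 with the replicate block.

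Plxna4, which pairs with Nrp1 for Sema3a, was the plexin with the widest spread among controls. Plxna4 stood at 339.7, 438 and 351 over rDLL4+RO and at 312, 415 and 342 over rJAG1+RO. Without the inhibitor, Plxna4 stood at 227, 294 and 219 over rDLL4 and at 193, 179 and 177 over rJAG1, against 327, 359.6 and 177 in DMSO. DMSO library 3, at 177, fell within the range of rJAG1, while both ligand groups lay below their RO groups. RO on rJAG1 changed Plxna4 by 0.95 ± 0.21 (adjusted p = 0.0042) and RO on rDLL4 by 0.61 ± 0.21 (adjusted p = 0.076). With rJAG1 the change was -0.59 ± 0.21, adjusted p = 0.096, or 0.02 with the replicate block. Plxna3 rose with RO on rDLL4 (0.49 ± 0.13, adjusted p = 0.024) and on rJAG1 (0.68 ± 0.13, adjusted p = 0.0019), the first lost without rDLL4+RO library 2 or 3 or rDLL4 library 1 or 3 (adjusted p = 0.083 to 0.11). Its means were 20.6 ± 1.84 in rDLL4+RO, 21.1 ± 2.73 in rJAG1+RO, 14.4 ± 2.11 in rDLL4 and 12.8 ± 1.01 in rJAG1, against 16.9 ± 2.77 in DMSO. With rJAG1 Plxna3 stood at -0.37 ± 0.13, adjusted p = 0.1, or 0.023 with the replicate block. Plxnb2 fell with rJAG1 (-0.36 ± 0.08, adjusted p = 0.0086) and rose with RO on rJAG1 (0.42 ± 0.08, adjusted p = 0.0016), with the first call lost in a fit of only those 2 groups (adjusted p = 0.15). Plxna1, Plxnb1 and Plxnb3 were not called.

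Of the neuropilins, co-receptors for class 3 semaphorins and VEGF, Nrp1 rose with both ligands. Nrp1 stood at 4.15, 3.84 and 3.87 over rDLL4+RO and at 3.58, 4.32 and 3.5 over rJAG1+RO. Without the inhibitor, Nrp1 stood at 5.72, 5.77 and 5.99 over rDLL4 and at 7.53, 5.28 and 6.84 over rJAG1, against 3.46, 3.31 and 4.38 in DMSO. Each ligand group lay above DMSO and above its RO group without overlap. The changes were 0.54 ± 0.13 (adjusted p = 0.034) with rDLL4, 0.67 ± 0.13 (adjusted p = 0.0033) with rJAG1, -0.46 ± 0.13 (adjusted p = 0.035) for RO on rDLL4 and -0.64 ± 0.13 (adjusted p = 0.0028) for RO on rJAG1. The rDLL4 call was lost without rDLL4 library 1, 2 or 3 or DMSO library 1 or 2 (adjusted p = 0.098 to 0.15), in a fit of only those 2 groups (0.13), or after quantile normalization (0.05), the rJAG1 call in a fit of only those 2 groups (adjusted p = 0.069), and that for RO on rDLL4 without rDLL4+RO library 1, 2 or 3 or rDLL4 library 1, 2 or 3 (adjusted p = 0.066 to 0.11). Nrp2 rose with RO on rJAG1 (0.41 ± 0.11, adjusted p = 0.016), a call lost without rJAG1+RO library 1 or 3 or rJAG1 library 2 (adjusted p = 0.051 to 0.073). RO on rDLL4 gave Nrp2 a change of 0.34 ± 0.11, adjusted p = 0.059.

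Ntn4, a laminin-like netrin of basement membranes that acts on endothelial cells, had the largest change of all members. Ntn4 stood at 2.76, 3.80 and 3.57 over rDLL4+RO and at 1.75, 4.27 and 2.86 over rJAG1+RO. Without the inhibitor, Ntn4 stood at 12.5, 15.9 and 13.5 over rDLL4 and at 22.8, 32.0 and 19.8 over rJAG1, against 4.26, 4.39 and 2.76 in DMSO. All rJAG1 libraries lay above all rDLL4 libraries, which lay above every DMSO and RO library. The log2 fold change was 1.65 ± 0.22 (adjusted p = 4.9e-04) with rDLL4 and 2.42 ± 0.22 (adjusted p = 4.4e-06) with rJAG1, and -1.78 ± 0.22 (adjusted p = 8.4e-05) and -2.73 ± 0.22 (adjusted p = 5.3e-07) for RO on them. These 4 calls held in all 6 fits that left out 1 library. Unc5c, a netrin receptor at low signal, rose with RO on rJAG1 (0.67 ± 0.21, adjusted p = 0.032), lost without rJAG1+RO library 1 or 2 or rJAG1 library 1 or 2 (adjusted p = 0.051 to 0.15). Unc5b averaged 313 ± 25.4 in rDLL4+RO, 321 ± 24.6 in rJAG1+RO, 368 ± 13.5 in rDLL4 and 374 ± 25.5 in rJAG1, against 320.0 ± 53.1 in DMSO, and was not called, though with rJAG1 its adjusted p was 0.038 with the replicate block.

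Both secreted Slits rose with both ligands. Slit2 stood at 408, 406 and 435 over rDLL4+RO and at 449, 453 and 437 over rJAG1+RO. Without the inhibitor, Slit2 stood at 727, 684 and 673 over rDLL4 and at 796, 623 and 678 over rJAG1, against 534, 507 and 546 in DMSO. RO groups lay below DMSO and ligand groups above it, with no overlap. Slit2 changed by 0.39 ± 0.08 (adjusted p = 0.0098) with rDLL4, 0.39 ± 0.08 (adjusted p = 0.0035) with rJAG1, -0.74 ± 0.08 (adjusted p = 1.6e-05) for RO on rDLL4 and -0.64 ± 0.08 (adjusted p = 2.9e-05) for RO on rJAG1. The rDLL4 call was lost without rDLL4 library 1 (adjusted p = 0.061), and the rJAG1 call in a fit of only those 2 groups (adjusted p = 0.1). Below DMSO, rDLL4+RO differed by -0.34 ± 0.08 (adjusted p = 0.042), a call lost without rDLL4+RO library 1, 2 or 3 or DMSO library 1 or 3 (adjusted p = 0.095 to 0.18), or in a fit of only those 2 groups (0.14). Slit3 stood at 167, 177 and 165 over rDLL4+RO and at 179, 182 and 168 over rJAG1+RO. Without the inhibitor, Slit3 stood at 253, 256 and 237 over rDLL4 and at 276, 213 and 257 over rJAG1, against 191, 171 and 165 in DMSO. Slit3 libraries with ligand lay above all DMSO libraries, whose range the RO groups overlapped. Slit3 changed by 0.50 ± 0.09 (adjusted p = 0.0033) with rDLL4, 0.49 ± 0.09 (adjusted p = 0.0013) with rJAG1, -0.55 ± 0.09 (adjusted p = 5.2e-04) for RO on rDLL4 and -0.49 ± 0.09 (adjusted p = 7.9e-04) for RO on rJAG1, the second lost in a fit of only those 2 groups (adjusted p = 0.05). Robo1, the receptor of Slits listed in this table, averaged 2.89 ± 0.950 in rDLL4+RO, 2.99 ± 0.374 in rJAG1+RO, 3.19 ± 1.02 in rDLL4 and 2.36 ± 0.956 in rJAG1, against 3.28 ± 0.318 in DMSO, and was not called.

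**Figure D3:**
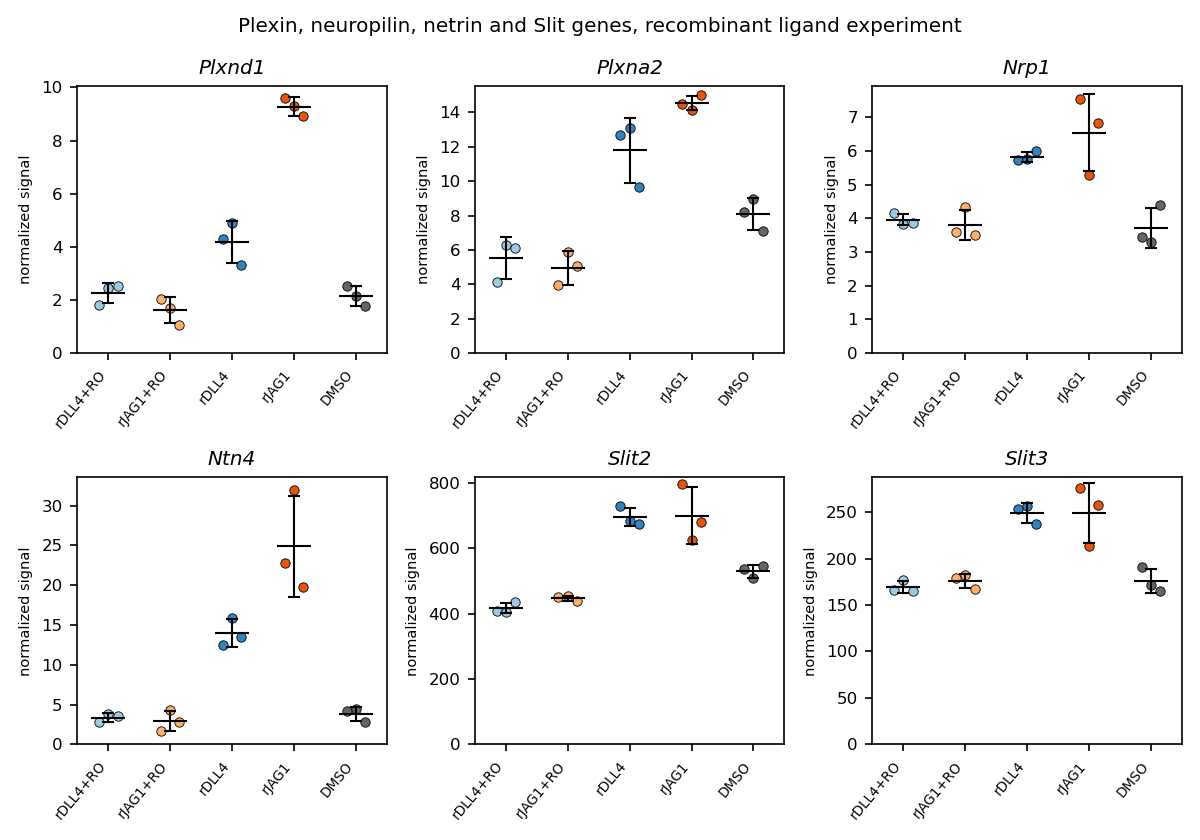
Normalized signal of Plxnd1, Plxna2, Nrp1, Ntn4, Slit2 and Slit3 in each library of the recombinant ligand experiment (points), with the mean and SD of each group (bars, n = 3). Ligand groups without RO lie above DMSO in all 6 panels, and Ntn4 stands at 19.8 to 32.0 over rJAG1 and 2.76 to 4.39 in DMSO.

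Of the ephrins, ligands bound to the cell surface, Efnb1 was called with both ligands. Efnb1 stood at 65.4, 62.8 and 69.4 over rDLL4+RO and at 79.3, 63.3 and 69.8 over rJAG1+RO. Without the inhibitor, Efnb1 stood at 109, 98.3 and 109 over rDLL4 and at 128, 106 and 124 over rJAG1, against 66.6, 56.3 and 80.8 in DMSO. Ligand libraries lay above every DMSO and RO library, and the RO groups overlapped DMSO. Efnb1, a transmembrane ligand of EphB receptors, changed by 0.64 ± 0.12 (adjusted p = 0.005) with rDLL4, 0.81 ± 0.12 (adjusted p = 2.4e-04) with rJAG1, -0.67 ± 0.12 (adjusted p = 0.0012) for RO on rDLL4 and -0.74 ± 0.12 (adjusted p = 2.8e-04) for RO on rJAG1. The rDLL4 call was lost in a fit of only those 2 groups (adjusted p = 0.064). Efnb2, listed among Notch targets, stood at 136, 144 and 141 in rDLL4+RO and 148, 148 and 153 in rJAG1+RO, with 157, 168 and 154 in rDLL4 and 157, 162 and 150.4 in rJAG1, against 168, 145 and 156 in DMSO. Its log2 fold change was 0.03 ± 0.06 (adjusted p = 0.97) with rDLL4 and 0.0037 ± 0.06 (adjusted p = 0.99) with rJAG1, with overlapping groups. Efna5, a lipid-anchored ligand of EphA receptors, rose with RO on rJAG1 (0.41 ± 0.10, adjusted p = 0.0087) and stood at -0.27 ± 0.10, adjusted p = 0.11 with rJAG1, or 0.0088 with the replicate block. Efna1, Efna2, Efna3, Efna4 and Efnb3 were not called.

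Ephb2, a receptor of ephrin-Bs, rose with both ligands. Ephb2 stood at 15.6, 17.7 and 15.5 over rDLL4+RO and at 12.7, 17.8 and 13.1 over rJAG1+RO. Without the inhibitor, Ephb2 stood at 32.1, 38.1 and 32.5 over rDLL4 and at 38.7, 39.6 and 34.8 over rJAG1, against 17.4, 20.2 and 16.4 in DMSO. The ligand libraries lay between 32.1 and 39.6 and the others between 12.7 and 20.2, so the groups did not overlap. Ephb2 changed by 0.89 ± 0.12 (adjusted p = 5.2e-04) with rDLL4, 1.03 ± 0.12 (adjusted p = 4.4e-05) with rJAG1, -1.03 ± 0.12 (adjusted p = 4.7e-05) for RO on rDLL4 and -1.33 ± 0.12 (adjusted p = 1.6e-06) for RO on rJAG1, and these calls held in all 6 fits that left out 1 library. Epha3, which mice need in the endocardial cushions of the atrioventricular canal, moved the same way at lower signal. Epha3 stood at 1.59, 1.72 and 2.52 over rDLL4+RO and at 1.98, 2.49 and 2.46 over rJAG1+RO. Without the inhibitor, Epha3 stood at 4.94, 5.00 and 4.22 over rDLL4 and at 6.91, 9.12 and 5.79 over rJAG1, against 2.49, 2.73 and 1.76 in DMSO. Ligand libraries lay above all others, and rJAG1 above rDLL4. The changes of Epha3 were 0.79 ± 0.17 (adjusted p = 0.017) with rDLL4, 1.31 ± 0.17 (adjusted p = 1.1e-04) with rJAG1, -0.97 ± 0.17 (adjusted p = 0.0015) for RO on rDLL4 and -1.31 ± 0.17 (adjusted p = 5.7e-05) for RO on rJAG1, the first lost without rDLL4 library 1 or 2 (adjusted p = 0.07 to 0.077), or in a fit of only those 2 groups (0.068).

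Epha4, which binds ephrins of both classes, fell with RO on either ligand. Epha4 stood at 36.8, 31.3 and 31.3 over rDLL4+RO and at 43.5, 33.9 and 35.1 over rJAG1+RO. Without the inhibitor, Epha4 stood at 67.8, 53.0 and 55.0 over rDLL4 and at 77.6, 52.6 and 58.0 over rJAG1, against 45.4, 35.6 and 52.6 in DMSO. The RO groups lay below the ligand groups and overlapped DMSO, as did rJAG1 but not rDLL4. RO changed Epha4 by -0.80 ± 0.16 (adjusted p = 0.0036) on rDLL4 and -0.72 ± 0.16 (adjusted p = 0.0048) on rJAG1. The ligands gave 0.40 ± 0.16, adjusted p = 0.29 for rDLL4 and 0.48 ± 0.16, adjusted p = 0.073 for rJAG1, or 0.031 and 0.0046 with the replicate block. Epha2 stood at 147, 152 and 169.9 in rDLL4+RO and 209, 171 and 208 in rJAG1+RO, with 212, 219.7 and 267 in rDLL4 and 244, 195 and 255 in rJAG1, against 186, 163 and 318 in DMSO, where library 3 was highest. RO on rDLL4 gave Epha2 a change of -0.57 ± 0.19, adjusted p = 0.069, and Epha2 was not called. Epha1, Epha7, Ephb3, Ephb4 and Ephb6 were not called. With the replicate block, RO on rJAG1 had Efna1 and Ephb6 higher and Plxnb3 and Unc5b lower as well. That fit called 3634 of 13407 genes, against 2461 without the block. In all, 23 of 49 members were called without the block in at least 1 of the 8 comparisons of this experiment and 26 in none. No such share was counted over all genes, of which RO on rJAG1 alone called 18.4%, so this is a tally only.

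**Figure D4:**
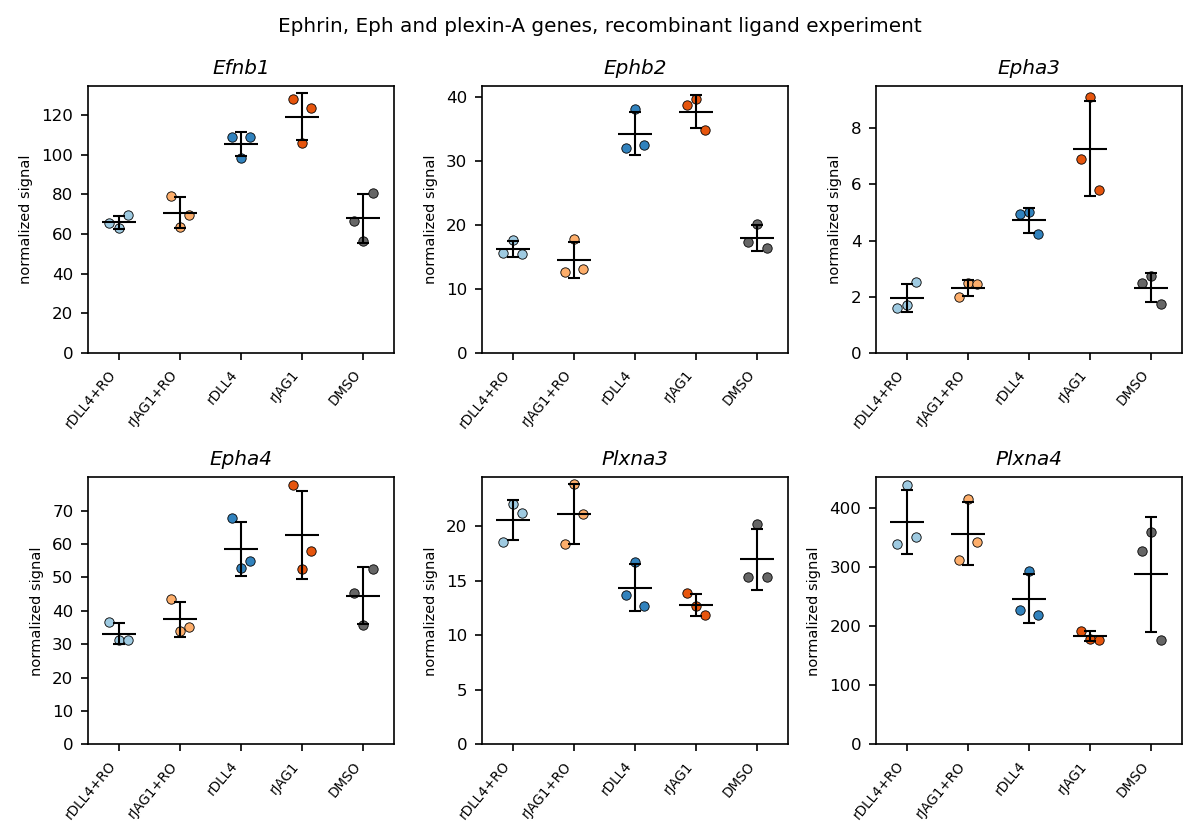
Normalized signal of Efnb1, Ephb2, Epha3, Epha4, Plxna3 and Plxna4 in each library of the recombinant ligand experiment (points), with the mean and SD of each group (bars, n = 3). Ephb2 stands at 32.1 to 39.6 over the ligands without RO and at 12.7 to 20.2 in the other groups.

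Genes of the stromal list rose with the ligands as well: 4 of 12 listed with rDLL4 (Col1a1, Col1a2, Postn and Prrx1) and 5 with rJAG1 (the same and Cxcl12). With RO on rDLL4, Col1a1, Col1a2, Pdgfrb and Postn fell and Vcam1 rose, and with RO on rJAG1 these 5 moved the same way, Cxcl12 and Prrx1 fell too, and Col3a1 and Kitl rose. The summed signal of that list was 8391 to 9217 in rDLL4+RO, 8369 to 9290 in rJAG1+RO, 8110 to 9419 in rDLL4 and 7673 to 8618 in rJAG1, against 5914 to 9251 in DMSO. Lum, Lepr, Ebf2, Twist2, Pparg and Adipoq of that list were not listed here, nor in the first or second experiment, where OP9 cells were present. Their absence therefore does not show that OP9-like cells were lacking. Ebf1 was listed here and not in those experiments. Of the 13 endothelial markers listed, Cd34 was lower with rDLL4 and with rJAG1 and higher with RO on either, Nfatc1 was lower with RO on either, and with RO on rJAG1 Tek was higher and Eng and Kdr were lower. The sum of that list was 414 to 438 in rDLL4+RO, 405 to 435 in rJAG1+RO, 390.1 to 441 in rDLL4 and 373 to 404 in rJAG1, against 378 to 469 in DMSO. The 2 cardiomyocyte genes listed of 10 moved apart with RO on either ligand, Myl7 higher and Tnnt2 lower. They summed to 13.8 to 16.3 in rDLL4+RO, 13.7 to 17.8 in rJAG1+RO, 15.5 to 22.0 in rDLL4 and 18.9 to 20.2 in rJAG1, against 18.1 to 24.0 in DMSO. Of 4 blood genes listed of 13 none was called in limma in these comparisons. The part of such cells in the changes above was not tested.

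The ligands were also set against each other. Between rDLL4 and rJAG1, 2 of 49 members differed, against 0.231% of all genes. Plxnd1 was lower with rDLL4 than with rJAG1, -1.0 ± 0.16 (adjusted p = 0.019), and Sema3c higher, 0.89 ± 0.14 (adjusted p = 0.013), with the library values given above and no overlap. The Plxnd1 call was lost without rDLL4 library 1 or 3 or rJAG1 library 1 or 2 (adjusted p = 0.052 to 0.1), in edgeR on recovered reads (0.064), or in a fit of only those 2 groups (0.063), and the Sema3c call without rDLL4 library 2 or rJAG1 library 2 (adjusted p = 0.053 to 0.086). The count of 2 was 1 without any rDLL4 library or rJAG1 library 1, and 0 without rJAG1 library 2. With the replicate block 4 members differed, against 0.88% of all genes, the others being Ntn4 (-0.77, adjusted p = 0.047) and Sema3a (0.46, adjusted p = 0.011). The ligands came with different tags, and their amounts on the wells are not given in the labels, so dose and ligand cannot be told apart. Between rDLL4+RO and rJAG1+RO 0 members differed, against 0% of all genes, with 0 members and 191 genes at an unadjusted p under 0.05 in limma and 0 members in edgeR. Against DMSO, 1 member (Slit2, lower) was called in rDLL4+RO, against 1.4% of all genes, and 0 in rJAG1+RO, against 0.94%, with 8 members at an unadjusted p under 0.05. Without DMSO library 3 the second count was 1, and library weights gave 12 and 9. With the block these were 5 members against 4.38% and 2 members against 2.9%. In rDLL4+RO they were Slit2, Epha4 (0.039) and Ephb3 (0.025), lower, and Sema3d and Epha7 (adjusted p = 0.018), higher, and in rJAG1+RO Plxna2, lower, and Sema3e, higher, with the p given above. The difference between the inhibitor's effects on rDLL4 and on rJAG1 was called for 0 members, against 0.0149% of all genes, with 6 members at an unadjusted p under 0.05.

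Co-culture asked what ligand on a neighbouring cell changes. After 24 h over OP9-Jag1, 5 of 51 members rose and 2 fell, 13.7% against 2.02% of all genes (1.04% higher, 0.987% lower). In the fit that kept replicate number as a block, 11 rose and 8 fell, against 10.9% of all genes. After 24 h over OP9-Dll4, 1 rose and 1 fell, 3.92% against 0.511%, or 8 and 6 with the block, against 5.82%. Both ligands share the OP9-GFP libraries. The count of 7 for Jag1 was 3 without OP9-GFP library 1 or OP9-Jag1 library 1, and 2 without OP9-GFP library 2 or OP9-Jag1 library 3, while library weights gave 13 and quantile normalization 4. The count of 2 for Dll4 was 0 in each of the 6 fits that left out 1 library. The numbers were taken to pair these libraries, since those with the same number deviated together from their group means. Correlations were 0.201 to 0.295 for Dll4 and 0.2134 to 0.2747 for Jag1. The labels do not say what such libraries share, and the p-values with the block rest on this pairing.

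Ntn4 rose over both ligands. It stood at 4.38, 3.82 and 4.95 over OP9-Dll4 and 5.70, 3.89 and 8.51 over OP9-Jag1 at 24 h, against 1.52, 1.91 and 2.27 over OP9-GFP. All ligand libraries lay above all OP9-GFP libraries. The log2 fold change was 0.89 ± 0.19 (adjusted p = 0.049) with Dll4 and 1.23 ± 0.19 (adjusted p = 0.0033) with Jag1, and the Dll4 call was lost without OP9-Dll4 library 1, 2 or 3 or OP9-GFP library 1, 2 or 3 (adjusted p = 0.06 to 0.27), in edgeR on recovered reads (0.059), or with a pseudocount of 4 (0.096). At 6 h Ntn4 stood at 3.85, 4.58 and 3.09 over OP9-Dll4 and 4.49, 4.86 and 5.24 over OP9-Jag1, against 2.32, 2.82 and 2.25 over OP9-GFP, again without overlap. Those changes were 0.47 ± 0.19, adjusted p = 1.00 with Dll4 and 0.76 ± 0.19, adjusted p = 0.21 with Jag1, the second with adjusted p = 0.0065 under the block.

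Plxnd1 rose over OP9-Jag1 at 24 h. It stood at 12.8, 7.53 and 12.1 over OP9-Dll4 and 16.5, 12.5 and 19.5 over OP9-Jag1, against 5.42, 5.38 and 6.48 over OP9-GFP, and ligand libraries lay above all OP9-GFP libraries. The change was 1.33 ± 0.23 (adjusted p = 0.0052) with Jag1 and 0.77 ± 0.23 (adjusted p = 0.22) with Dll4, or 0.0014 with the block. Plxna2 stood at 19.7, 19.1 and 20.2 over OP9-Dll4 and 22.4, 20.8 and 26.5 over OP9-Jag1, against 16, 13.2 and 15 over OP9-GFP, again without overlap. It changed by 0.62 ± 0.15 (adjusted p = 0.047) with Jag1, a call lost without OP9-Jag1 library 1, 2 or 3 or OP9-GFP library 1, 2 or 3 (adjusted p = 0.05 to 0.25), in edgeR on recovered reads (0.062), with a pseudocount of 4 (0.069), or after quantile normalization (0.084), and by 0.39 ± 0.15 (adjusted p = 0.51) with Dll4, or 9.9e-04 with the block.

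The Slits rose over OP9-Jag1. At 24 h Slit2 stood at 478, 504 and 524 over OP9-Dll4 and 503, 527 and 589 over OP9-Jag1, against 442, 419.7 and 476 over OP9-GFP. Slit3 stood at 216, 228 and 257 over OP9-Dll4 and 238, 268 and 296 over OP9-Jag1, against 188, 157 and 204 over OP9-GFP. For both genes every ligand library lay above every OP9-GFP library. With Jag1 Slit2 changed by 0.27 ± 0.07 (adjusted p = 0.04) and Slit3 by 0.55 ± 0.13 (adjusted p = 0.039). The Slit2 call was lost without OP9-Jag1 library 2 or 3 or OP9-GFP library 1 or 2 (adjusted p = 0.065 to 0.24), or in a fit of only those 2 groups (0.12), and the Slit3 call without OP9-Jag1 library 1, 2 or 3 or OP9-GFP library 1 or 2 (adjusted p = 0.06 to 0.24), or after quantile normalization (0.051). With Dll4 the block gave adjusted p = 0.013 for Slit2 and 0.0012 for Slit3.

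Sema3a fell over both ligands. It stood at 69.1, 73.3 and 75.2 over OP9-Dll4 and 67.2, 79.8 and 74.1 over OP9-Jag1, against 86.7, 87.3 and 95.3 over OP9-GFP, without overlap. The change was -0.30 ± 0.06 (adjusted p = 0.045) with Dll4 and -0.28 ± 0.06 (adjusted p = 0.022) with Jag1. The Dll4 call was lost without OP9-Dll4 library 1, 2 or 3 or OP9-GFP library 1, 2 or 3 (adjusted p = 0.075 to 0.24), or in a fit of only those 2 groups (0.066), and the Jag1 call without OP9-Jag1 library 1 or 3 or OP9-GFP library 2 or 3 (adjusted p = 0.065 to 0.15), or in a fit of only those 2 groups (0.1). Sema4d, a membrane semaphorin that acts on plexin-Bs, stood at 9.24, 12.1 and 10.6 over OP9-Jag1, against 16.4, 16.7 and 13.6 over OP9-GFP, without overlap. It changed by -0.51 ± 0.13 (adjusted p = 0.047), a call lost without OP9-Jag1 library 1 or 3 or OP9-GFP library 1 or 2 (adjusted p = 0.15 to 0.24), in a fit of only those 2 groups (0.072), with a pseudocount of 4 (0.051), or after quantile normalization (0.056).

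Sema3c did not pass without the block. At 24 h it stood at 116, 166 and 139.7 over OP9-Dll4 and 86.0, 149 and 122 over OP9-Jag1, against 211, 243 and 246 over OP9-GFP, without overlap. The change was -0.74 ± 0.26, adjusted p = 0.39 with Dll4 and -1.0 ± 0.26, adjusted p = 0.059 with Jag1, or 2.0e-06 and 2.6e-08 with the block. Other members called with the block alone over both ligands were Sema3d (adjusted p = 2.0e-04 with Dll4 and 1.2e-04 with Jag1), Sema3e (0.0019 and 1.3e-04), Efna5 (0.0076 and 3.9e-04) and Epha1 (0.036 and 0.015), all lower, and Sema6d (6.5e-04 and 2.4e-06) and Ephb2 (0.041 and 0.0059), both higher. With Jag1 alone these were Nrp1 (2.7e-04), Plxnb1 (4.3e-04), Unc5b (0.0059) and Efnb1 (0.0012), higher, and Efnb2 (0.0076), lower, and with Dll4 alone Epha4 (0.025), higher.

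**Figure D5:**
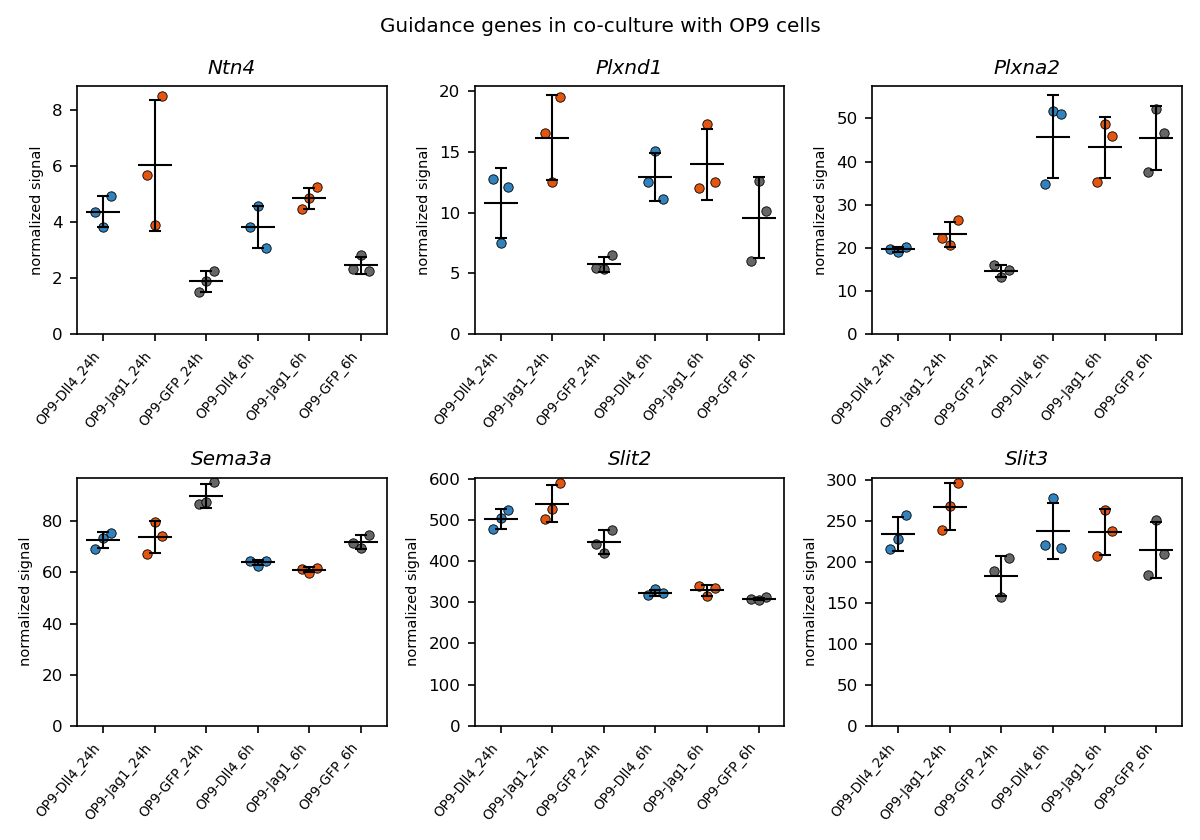
Normalized signal of Ntn4, Plxnd1, Plxna2, Sema3a, Slit2 and Slit3 in each library of the co-culture experiment (points), with the mean and SD of each group (bars, n = 3), at 24 h (left) and 6 h (right) in each panel. At 24 h the OP9-Dll4 and OP9-Jag1 libraries lie above OP9-GFP for all but Sema3a, where they lie below, and Plxna2 stands at 13.2 to 26.5 at 24 h and 34.7 to 52.2 at 6 h.

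At 24 h cardiomyocyte transcripts moved with Dll4: of 6 listed of 10, Actc1, Myh7, Myl2 and Ttn rose, and the summed signal of the list was 43.8 to 79.1 over OP9-Dll4 and 21.4 to 32.9 over OP9-Jag1, against 29.5 to 33.2 over OP9-GFP. Myh6, Myl3, Tnni3 and Nppa were not listed. Among 3 blood genes listed of 13, Hbb-bs rose over OP9-Dll4, with list sums of 4.02 to 9.02 there and 3.57 to 4.16 over OP9-Jag1, against 3.16 to 4.66 over OP9-GFP. Of 14 endothelial markers Cd34 was lower over both ligands and Klf4 over OP9-Jag1. The part of these transcripts in the members' results was not tested.

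At 6 h 0 of 51 members were called with Jag1, against 0.101% of all genes, and 0 with Dll4, against 0.0072%, in limma. At an unadjusted p under 0.05 there were 7 and 4 members, and edgeR called 0 in each. With the replicate block 4 rose and 4 fell with Jag1, against 3.36% of all genes, and 1 rose with Dll4, against 1.17%. The members that rose with Jag1 were Ntn4, Plxnd1 (adjusted p = 0.036), Sema6d (1.5e-04) and Efnb1 (0.041), and those that fell were Sema3a (0.0067), Sema3c (0.0066), Sema3d (0.0036) and Efna5 (0.022). With Dll4 it was Sema6d (0.0077). At 6 h Sema6d stood at 56.7, 91.9 and 68.0 over OP9-Dll4 and 62.3, 90.9 and 77.3 over OP9-Jag1, against 48.4, 74.2 and 57.8 over OP9-GFP, where library 2 was the highest of each group. Between OP9-Dll4 and OP9-Jag1, 0 members differed at 6 h, against 0% of all genes, and 0 at 24 h, against 0.0288%, with 1 and 2 members at an unadjusted p under 0.05. The Jag1 effect at 24 h differed from that at 6 h for 0 members, against 0.0072% of all genes, and the Dll4 effect for 0, against 0.0072%, with 5 and 0 members at an unadjusted p under 0.05. Of 7 Notch targets tested at 6 h, Hey1, Hey2 and Nrarp rose with Jag1 and 0 were called with Dll4. At 24 h Hey1, Hey2 and Nrarp rose with either ligand, and Heyl with Jag1.

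The second experiment set RO against DMSO before 6 h over OP9-GFP. Of 48 members 1 was called, against 0.909% of all genes, or 3 higher and 4 lower with the replicate block, against 3.29%. Slit3 stood at 149, 168, 144 and 155 with RO, against 209.8, 192, 206 and 201 with DMSO, and the groups did not overlap. Slit3 changed by -0.39 ± 0.06, adjusted p = 0.01, a call lost without DMSO library 3 (adjusted p = 0.05). With the block Slit2 (0.0074), Plxnd1 (0.033) and Ntn4 (adjusted p = 0.035) were also lower, and Sema3c (0.015), Sema4b (0.039) and Unc5c (0.034) higher. Without RO library 1 the count of 1 was 3, without DMSO library 3 it was 0, and library weights gave 4. Ntn4 stood at 1.54, 1.81, 0.950 and 1.69 with RO, against 3.48, 2.94, 3.28 and 2.45 with DMSO, without overlap. Of 5 Notch targets tested, Hes1, Hey1, Hey2 and Nrarp fell.

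The control co-culture was also compared between times. Over OP9-GFP at 24 h against 6 h, 7 members rose and 10 fell, 33.3% against 19.2% of all genes (9.45% higher, 9.71% lower). Of other cell types' markers, the blood genes Cd68 and Csf1r were lower at 24 h (2 of 3 listed of 13, without Ptprc), with list sums of 3.16 to 4.66 at 24 h, against 7.68 to 11.8 at 6 h. Of 14 endothelial markers Cd34 was higher and Flt1, Klf2 and Klf4 lower, with sums of 383 to 385 at 24 h, against 401 to 485 at 6 h. Their part in the members' changes was not tested. Time and the confluency of MEEC at plating cannot be told apart here. Without OP9-GFP library 2 at 6 h the count of 17 was 10. The largest change was in Sema5a, which stood at 1.88, 2.20 and 1.63 at 24 h, against 6.47, 20.4 and 10.6 at 6 h, where library 2 was highest. Sema5a changed by -2.09 ± 0.40 (adjusted p = 0.0022). Plxna2 stood at 16, 13.2 and 15 at 24 h, against 37.5, 52.2 and 46.6 at 6 h, and changed by -1.55 ± 0.15 (adjusted p = 1.2e-05). Both genes' groups stood apart, and both calls held in all 6 fits that left out 1 library.

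Among the other members that fell with time, Sema3b stood at 3.51, 4.15 and 3.67 at 24 h, against 6.02, 8.21 and 7.69 at 6 h (-0.79 ± 0.23, adjusted p = 0.023). Ephb6, an Eph receptor without kinase activity, stood at 6.98, 4.94 and 7.70 at 24 h, against 11.0, 12.9 and 11.2 at 6 h (-0.77 ± 0.20, adjusted p = 0.015). Robo1 stood at 2.02, 2.13 and 1.88 at 24 h, against 4.43, 3.77 and 3.53 at 6 h (-0.70 ± 0.13, adjusted p = 0.0018). In each of these 3 genes the times did not overlap. Sema6c stood at 1.24, 1.91 and 2.01 at 24 h, against 2.64, 3.71 and 3.39 at 6 h (-0.65 ± 0.19, adjusted p = 0.025). Sema4b stood at 29.4, 24.9 and 28.6 at 24 h, against 33.0, 48.2 and 39.6 at 6 h (-0.51 ± 0.16, adjusted p = 0.033). Efna1, an ephrin induced by inflammatory cytokines in endothelium, stood at 4.00, 4.08 and 5.01 at 24 h, against 5.32, 7.89 and 6.08 at 6 h (-0.46 ± 0.14, adjusted p = 0.028). These 3 did not overlap between times either, and Epha4 and Sema4a fell too, with log2 fold changes of -0.42 and -0.40. The Sema3b call was lost without 24 h library 1 or 3 or 6 h library 2 or 3 (adjusted p = 0.06 to 0.089), or after quantile normalization (0.057). That of Ephb6 was lost without 24 h library 2 or 6 h library 2 (adjusted p = 0.063 to 0.079), that of Sema6c without 24 h library 1 or 6 h library 2 or 3 (adjusted p = 0.068 to 0.11), in a fit of only those 2 groups (0.052), or after quantile normalization (0.085), and that of Sema4b without 24 h library 1, 2 or 3 or 6 h library 2 or 3 (adjusted p = 0.058 to 0.16), or after quantile normalization (0.053). The Efna1 call was lost without 24 h library 1 or 2 or 6 h library 2 or 3 (adjusted p = 0.052 to 0.16), in a fit of only those 2 groups (0.1), or after quantile normalization (0.13). For Epha4 it was lost without 24 h library 3 or 6 h library 2 (adjusted p = 0.067 to 0.091), or in a fit of only those 2 groups (0.055), and for Sema4a without 24 h library 2 or 3 or 6 h library 2 (adjusted p = 0.066 to 0.1), in a fit of only those 2 groups (0.065), or after quantile normalization (0.11).

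Members that rose with time included Epha1, which stood at 17.5, 16.4 and 15.6 at 24 h, against 9.71, 12.2 and 10.0 at 6 h (0.59 ± 0.12, adjusted p = 0.003). Slit2 stood at 442, 419.7 and 476 at 24 h, against 307, 307 and 312 at 6 h (0.53 ± 0.07, adjusted p = 8.9e-05), while Robo1, its receptor, was among the genes that fell. Plxnb2 stood at 680.1, 593 and 672 at 24 h, against 431, 494 and 460.5 at 6 h (0.49 ± 0.08, adjusted p = 9.9e-04). Sema3d stood at 169, 155 and 196 at 24 h, against 106, 137 and 130.1 at 6 h (0.48 ± 0.12, adjusted p = 0.014). In each of these 4 genes the times did not overlap. Unc5b, Sema3f and Sema3a rose by 0.40, 0.37 and 0.32. The Sema3d call was lost without 24 h library 3 (adjusted p = 0.066), or after quantile normalization (0.062), the Plxnb2 call after quantile normalization (adjusted p = 0.06) and the Unc5b call after quantile normalization (adjusted p = 0.057). Of 51 members, 21 were called without the block in at least 1 of the 7 comparisons of the co-culture experiment and 30 in none. That too is a tally only, since no such share was counted over all genes, of which 24 h against 6 h alone called 19.2%.

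Other genes of these pathways were taken from a list of 82 co-receptors, further ligands and intracellular partners. With rDLL4 5 of 72 tested rose and 1 fell, where 3.5% of all genes were called, and with rJAG1 11 rose and 7 fell, where 9.58% were. Srgap1, a partner of Robo receptors inside the cell, rose with rDLL4 (0.80 ± 0.20, adjusted p = 0.038) and rJAG1 (1.02 ± 0.20, adjusted p = 0.0032). Mmp14, a membrane protease, rose with rDLL4 (0.72 ± 0.13, adjusted p = 0.0051) and rJAG1 (1.02 ± 0.13, adjusted p = 9.5e-05). Mical1, an oxidase downstream of plexins, rose with rDLL4 (0.42 ± 0.08, adjusted p = 0.0092) and rJAG1 (0.74 ± 0.08, adjusted p = 2.6e-05). Vav3, an exchange factor used by Eph receptors, rose with rDLL4 (0.70 ± 0.18, adjusted p = 0.045) and rJAG1 (1.1 ± 0.18, adjusted p = 7.9e-04), and so did Rras, a GTPase that plexins act on (0.36 ± 0.08, adjusted p = 0.024 and 0.52 ± 0.08, adjusted p = 6.2e-04). Vegfd, a ligand that shares neuropilins with the semaphorins, fell with rDLL4 (-0.65 ± 0.15, adjusted p = 0.027) and rJAG1 (-1.14 ± 0.15, adjusted p = 1.2e-04). Neo1, the netrin receptor neogenin, fell with rJAG1 (-0.44 ± 0.10, adjusted p = 0.013), and so did Flrt2, a ligand of Unc5 receptors (-0.45 ± 0.10, adjusted p = 0.011). RO on rDLL4 gave 5 higher and 16 lower, against 10.7% of all genes, and RO on rJAG1 11 higher and 19 lower, against 18.4%. The list's median log2 fold change was 0.06, 0.04, -0.14 and -0.07 in these 4 comparisons, beside the all-gene medians given above. In co-culture at 24 h, 2 of 75 rose with Jag1 (Mical1 and Vav3) and 3 fell (Dpysl3, Tiam1 and Vegfd), against 2.02% of all genes, while with Dll4 1 fell (Vegfd), against 0.511%. With RO over OP9-GFP, Ngef rose and Mmp14 fell of 71, against 0.909%. Between 24 h and 6 h over OP9-GFP, 20 of 75 rose and 8 fell, against 19.2% of all genes. At 6 h 0 were called with either ligand.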

How the data were processed

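Per the submitters' processing notes the tools were FastQC, cutadapt, RSEM and limma, with genome build GRCm38. Versions, trimming, annotation and strand setting are not given in the sources used here, so reads of overlapping and antisense genes cannot be told apart. For each experiment the authors deposited a table of normalized signal. Each deposited signal is a whole number of reads plus 0.5, divided by a scaled library size, and 100% of values came out whole within 0.01 reads in every library. Tables were normalized apart, so no test crosses them.

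From the deposited signal, log2(signal + 1) was fitted with limma 3.58.1 (R 4.3.3) with a mean-variance trend, fitting the groups of a table jointly, and p was adjusted over all its genes by Benjamini-Hochberg. Adjusted p values are from this fit unless another is named. The script was tested on simulated data. Alternatives were pseudocounts of 0.5 and 4, a mean signal of at least 4, quantile normalization, library weights, fits of only the 2 groups, edgeR 4.0.16 (quasi-likelihood) on the recovered reads, the replicate number as a block, and leaving out each library. The number, from the library titles, was taken to pair the samples where every correlation of deviations from group means exceeded 0.1. That held for all comparisons within a time or experiment but RO on rDLL4. The labels do not say what libraries of the same number share. No correlation was computed between libraries of different numbers, so whether the shared deviations are particular to the number was not tested. In the co-culture experiment the block was set within each time for comparisons within a time. For 24 h against 6 h, and for differences between the effects at the 2 times, it was the replicate number alone. Chi-square per gene between libraries of a group was 5.42 or more, so none was counted as a duplicate. Floors of 3 reads cover counting error only.

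The members and lists were chosen with earlier results of these data known. A member is given with every library's value where it was called, up to the 12 largest changes per comparison. Members called with the block alone are named, with that p except for RO on either ligand and for 24 h against 6 h. Exon length per gene came from GENCODE vM21, over protein-coding basic transcripts.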

Additional observations from a re-analysis of the deposited data

Results flagged for a closer look

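In the second experiment, the only one with groups of 4 libraries, 8 of 96 values of a member in a group held a library whose gap to the nearest of the others exceeded Dixon's 95% critical share of the group's range, where chance gives about 1 in 20. Plxnd1 was high in replicate 1 of both groups, at 17.6 with RO (others 5.06 to 5.40) and 21.4 with DMSO (others 7.23 to 8.28). Sema4b was low in RO replicate 1, at 37.4 (others 42.3 to 43.1), and in DMSO replicate 3, at 32.0 (others 34.2 to 34.4). In RO replicate 4, Plxna1 was high at 219.6 (others 186 to 188) and Sema6c low at 1.39 (others 2.03 to 2.08). In RO replicate 2, Plxnb2 was low at 398 (others 443 to 452). In DMSO replicate 4, Ephb6 was low at 5.65 (others 7.70 to 8.10).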

How the results depend on the processing

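Of 96 calls of a member in a pairwise comparison, 96 held with the replicate number as a block, 95 with a pseudocount of 0.5, 95 with library weights, 93 in edgeR on recovered reads, 91 with a pseudocount of 4, 83 after quantile normalization and 73 in fits of only the 2 groups, and 78 of 78 with a mean signal of at least 4. In none of these settings or of the fits that left out 1 library did a called member change direction. Counts of members called moved with the block and with library weights. The block gave 8 for Jag1 at 6 h, 1 for Dll4 at 6 h, 19 for Jag1 and 14 for Dll4 at 24 h, 7 for RO over OP9-GFP, 4 between rDLL4 and rJAG1, 5 for rDLL4+RO and 2 for rJAG1+RO against DMSO. RO on rDLL4 gave 26 of 49 members with the block, where 2315 of 13407 genes were called, against 1430 genes without it. There 1 pair correlated at 0.0778, under the threshold of 0.1, so the numbers were not taken to pair these samples. The highest correlation there was 0.4012, and rDLL4 and rDLL4+RO each passed the threshold against DMSO. Members added by the block were Efna5, Epha7, Nrp2, Plxna4 and Sema3f, higher, and Efnb2, Epha2, Ephb3, Ephb4 and Unc5b, lower. Library weights gave 6 (Jag1, 6 h), 13 (Jag1, 24 h), 1 (Dll4 against Jag1, 6 h), 4 (RO over OP9-GFP), 23 (rDLL4), 27 (rJAG1), 27 (RO on rDLL4), 12 (rDLL4+RO against DMSO), 9 (rJAG1+RO against DMSO) and 2 (difference between RO effects). Fits of only the 2 groups gave 5 (rDLL4), 10 (rJAG1), 1 (rDLL4 against rJAG1), 25 (RO on rDLL4) and 0 (rDLL4+RO against DMSO). For Dll4 at 24 h, edgeR, the mean of at least 4 and a pseudocount of 4 each gave 1, and the first 2 gave 1 for rDLL4 against rJAG1. Quantile normalization gave 4 for Jag1 at 24 h, and a pseudocount of 4 gave 1 for the difference between RO effects. The cause of these shifts was not tested. Apart from the main and block fits, no share over all genes is given here, so these counts are tallies only. Leaving out 1 library gave 2 to 5 members for Jag1 at 24 h, none in any of these fits for Dll4 at 24 h, 10 to 22 for 24 h against 6 h, 0 to 3 for RO over OP9-GFP, 6 to 12 for rDLL4, 14 to 22 for rJAG1, 0 to 3 for rDLL4 against rJAG1, 11 to 13 for RO on rDLL4, 20 to 24 for RO on rJAG1, and 0 to 1 for rDLL4+RO and for rJAG1+RO against DMSO. For 24 h against 6 h the numbers were not taken to pair the samples (correlations 0.0561 to 0.1005), and the block gave 23 members against 17. Over all 13886 genes it gave 4534 calls, against 2660 without it. The members added were Plxnb1 and Sema3c, higher, and Plxna4, Sema4f, Sema6d and Unc5c, lower. Members under a signal of 10, Sema4f, Sema5a, Robo1 and Unc5c among them, rest on fewer reads than those above it. In the third experiment Sema4f had 9 to 32 reads per library and Sema5a 4 to 66. Ntn4 (mean signal 9.80, 30 to 500 reads) and Plxna2 (8.98, 68 to 342) also stood under 10 there. So did Nrp1 (4.77, 51 to 154), Plxnd1 (3.89, 21 to 145) and Epha3 (3.71, 31 to 142). Plxnd1 had 35, 34 and 21 reads over rJAG1+RO.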
